A study of Homo sapiens with 6 samples.

Results

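The genes described here are the mitotic kinases *AURKA*, *AURKB*, *PLK1*, *BUB1*, *BUB1B*, *TTK*, *NEK2* and *CDK1* and the transcription factors *FOXM1* and *MYBL2*, 10 of the 57905 genes in the count table, chosen by their symbols, with earlier results of these data known. All 10 were found in the count and FPKM tables, and all 10 passed the filter on low counts that left 14178 genes for the test. They are regulators of the G2 and M phases of the cell cycle and were set beside 66 genes of S phase. The cells were RT4, an established line that stands for papillary bladder cancer which has not invaded the muscle, labelled wild type. LEADR-KD cells received an siRNA against *LEADR*, a spliced long non-coding RNA of the miR-205 host gene *MIR205HG*, and Scramble cells received a universal negative control siRNA. Both siRNAs were given at 100 pmol with a lipid reagent, and after 48 h the polyadenylated RNA of 3 samples for each siRNA was sequenced. A single siRNA sequence stood for the knock-down. The labels give replicate numbers but do not say which samples came from separate cultures. The paper's sequencing methods call the samples biological replicates, without saying how they were made. Every p-value rests on the spread among 3 samples of a group, steadied in the fit by that of other genes. If the samples were not from separate cultures, this spread could be technical only.

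A dividing cell copies its DNA in S phase and then, in G2, accumulates the kinases that will drive mitosis. CDK1 bound to cyclin B starts mitosis, PLK1 and Aurora A help to activate it and build the spindle poles, and TTK, BUB1, BUBR1 and Aurora B watch over the attachment of chromosomes to the spindle. The genes of these kinases are transcribed late in the cycle by the MuvB complex together with B-Myb, the product of *MYBL2*, and then with FOXM1, often through a promoter element called CHR. The genes of DNA replication are transcribed earlier, mainly by E2F factors. RNA levels of these kinases therefore depend on the share of cells in G2 and M as well as on transcription in each cell.

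The totals of counts ranged from 17369580 to 17841279 in LEADR-KD libraries and from 15706033 to 18960822 in Scramble libraries. Counts of mitochondrially encoded genes took 4.79 to 10.8% in LEADR-KD libraries and 3.06 to 11.9% in Scramble libraries, and were highest in the library numbered 1 of each group. The targeted gene *MIR205HG* (ENSG00000230937) had 113, 211 and 101 counts in LEADR-KD libraries, against 511, 337 and 346 in Scramble libraries, a log2 fold change of -1.47 (SE 0.26, adjusted p = 0.00180). The epithelial label held, since all 16 markers of urothelial or luminal epithelium had counts, although *KRT20* was too low to be tested. Their summed level was 8792 to 9379 CPM in LEADR-KD libraries and 7446 to 8179 CPM in Scramble libraries. Of the 15 tested, 3 rose and 2 fell at an adjusted p under 0.05, beside 12.2% and 12.1% of all tested genes. Named after their values were seen, *CDH1* (log2 fold change 1.11), *UPK1B* (0.76) and *KRT18* (0.39) rose, and *ELF3* (-0.51) and *FOXA1* (-0.30) fell. Of 8 fibroblast markers 5 were at 0 in every library, among them *COL1A2* and *DCN*, and the list summed to 18.4 to 25.7 CPM in LEADR-KD libraries and 26.4 to 32.1 CPM in Scramble libraries. Leukocyte markers summed to at most 0.440 CPM in LEADR-KD libraries and 0.667 CPM in Scramble libraries, with *CD3E* at 0, and the 7 endothelial markers in the table to 3.001 to 4.70 CPM in LEADR-KD libraries and 7.64 to 10.4 CPM in Scramble libraries, with *KDR* at 0. Most of the fibroblast sum was *COL3A1*, at 19.8 CPM in LEADR-KD cells and 27.3 CPM in Scramble cells (adjusted p = 0.0572). Most of the endothelial sum was *VWF*, at 3.71 CPM in LEADR-KD cells and 8.28 CPM in Scramble cells. Its log2 fold change was -1.16 (adjusted p = 0.00553), and both genes were named after their values were seen. The part of these marker levels in the results was not tested.

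The sequences that bear on these genes are the siRNA itself and the places where the members' transcripts pair with its 5′ end. A small RNA can pair with a transcript through bases 2 to 8 from its 5′ end, called the seed. The first line is the siRNA strand given in the labels, and the second is its reverse complement, since the labels do not give the other strand of the duplex. Capitals mark the seed.
LEADR siRNA, listed strand: aACUGGGUgcuuuauauagga
LEADR siRNA, complementary strand: uCCUAUAUaaagcacccaguu

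A search of the members' annotated coding transcripts in GRCh37 (hg19) found a match of 7 bases to the listed strand in 3 of the genes and to the complementary strand in 1. The windows are shown because *NEK2*, *FOXM1* and *CDK1* are among the members whose levels changed. *NEK2* had its match in the 3′ UTR of NEK2-202, 1 of its 3 coding transcripts, at chr1:211836315-211836321 on the minus strand. *CDK1* had its match, to the complementary strand of the siRNA, in the 3′ UTR of all 4 coding transcripts, at chr10:62554277-62554283 on the plus strand. *FOXM1* had none in its 3′ UTR and a pair in its coding sequence, in all 4 coding transcripts, at chr12:2968394-2968400 and chr12:2968176-2968182 on the minus strand. In *BUB1* a pair of matches lay in the coding sequence, at chr2:111413413-111413419 and chr2:111399335-111399341 on the minus strand. Capitals mark the bases that match.
*NEK2*, 3′ UTR: tgagcttagaaaACCCAGTtagatgcaatt
*CDK1*, 3′ UTR: tgatgctaaattTATAGGAgttttcagtaa
*FOXM1*, coding sequence, upstream: ttctcagaggggCCCAGTActtcccgctgg
*FOXM1*, coding sequence, downstream: actggatttcagCCCAGTAcaaacctccca
*BUB1*, coding sequence, upstream: caaaaccctggcACCCAGTcctaagagccc
*BUB1*, coding sequence, downstream: ttctacattgggACCCAGTtgatggaaaga

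Short matches of this kind are common. Of 12092 tested genes with an annotated 3′ UTR, 21.2% held a match of 7 or 8 bases to the listed strand there, and 23.2% of those fell while 11.1% rose. Of the 56.1% of genes with no 3′ UTR match to the listed strand, 8.37% fell and 15.5% rose. For the complementary strand, 15.8% of genes held such a match, of which 14.8% fell and 16.7% rose. Of the 72.7% of genes with no 3′ UTR match to that strand, 12.4% fell and 13.1% rose. In coding sequence, 19.4% of genes held a match of 7 or 8 bases to the listed strand and 17.8% of those fell, or 11.7% where the 3′ UTR held none, against 7.17% of genes with a match in neither place. A match of letters is a description and not a site of action, and its part in the levels of *NEK2*, *FOXM1* or *CDK1* was not tested. The longest stretch of perfect pairing between either strand and a member ran to 9 bases, in *BUB1*.

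*FOXM1* and *NEK2* fell in LEADR-KD cells, *CDK1* and *TTK* rose, and the other 6 members did not pass the test. *FOXM1* fell by 45.0% and *NEK2* by 35.7%, whereas *CDK1* rose by 25.2% and *TTK* by 22.6%. A gene is said to rise or fall here at an adjusted p under 0.05 in edgeR's quasi-likelihood test over all 14178 genes. By that rule 12.2% of all tested genes rose and 12.1% fell, so the members' 2 of 10 in each direction were counts close to those of genes at large. The 3 libraries of a group lay wholly above or below the other 3 in 6 members, 4 higher and 2 lower in LEADR-KD cells, where 19.9% of all tested genes were higher and 19.9% lower in this sense. In RNA from whole cultures, a changed share of cells in G2 and M and changed RNA in each such cell cannot be told apart. The paper saw no significant change in growth after *LEADR* knock-down. It also saw none in the uptake of EdU, its measure of the share of cells in S phase.

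**Figure D1:**
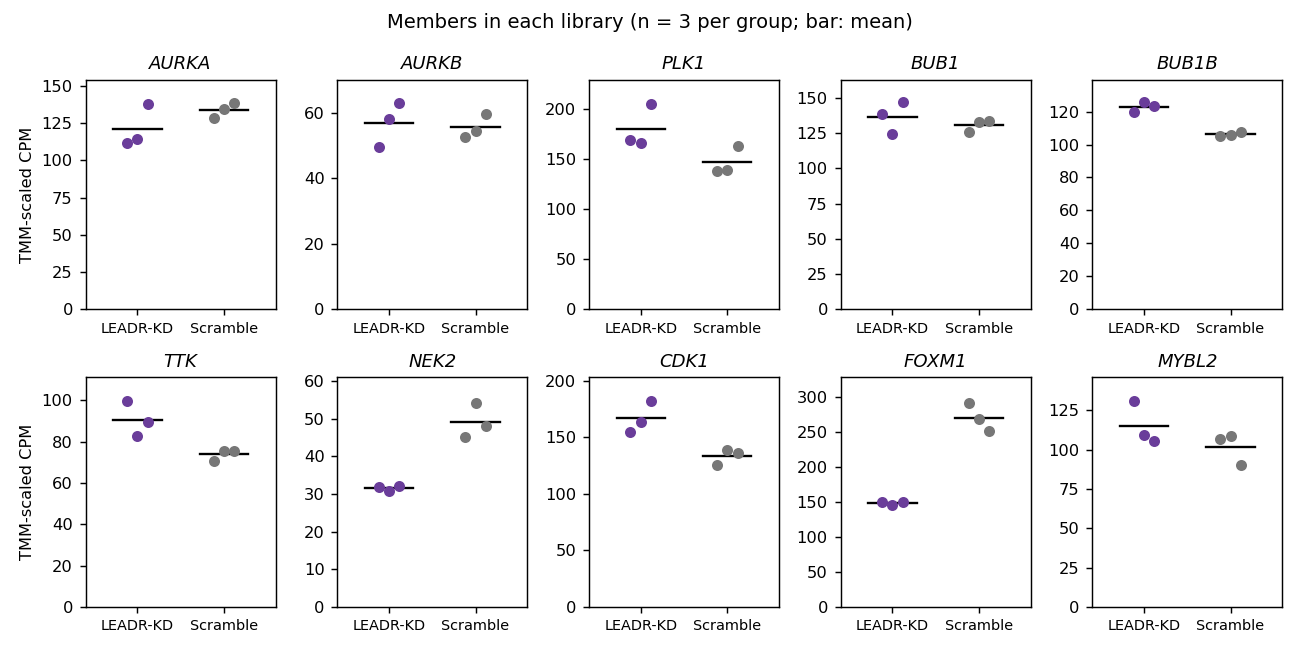
TMM-scaled CPM (library-size scaled counts) of the 10 members in each library, LEADR-KD (purple) left and Scramble (grey) right, with a bar at the mean of 3 libraries and axes that start at 0. *FOXM1* and *NEK2* are lower in all 3 LEADR-KD libraries, *PLK1*, *BUB1B*, *TTK* and *CDK1* are higher in all 3, and the groups overlap in *AURKA*, *AURKB*, *BUB1* and *MYBL2*.

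*FOXM1* (ENSG00000111206, chr12:2966847-2986206, minus strand) encodes the forkhead factor that drives transcription in G2. It had 151, 146 and 150.0 CPM in LEADR-KD libraries, against 291, 269 and 251 CPM in Scramble libraries, where CPM are counts scaled to library size by TMM. All 3 LEADR-KD libraries lay below all 3 Scramble libraries and within 5 CPM of each other. The means were 149 CPM in LEADR-KD cells and 270.3 CPM in Scramble cells (n = 3 each), a log2 fold change of -0.86 (SE 0.08, 95% interval -1.04 to -0.68, adjusted p = 2.59e-05). The gene ranked 146 by p among the tested genes. It passed in all 15 alternative fits, with log2 fold changes from -0.91 to -0.80.

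*FOXM1* overlaps genes on the opposite strand, and no source used here states whether reads were counted by strand. *RHNO1* overlaps it by 783 bases, had 1544 to 1827 counts per library and a log2 fold change of -0.10 (adjusted p = 0.439). *ITFG2* overlaps it by 2111 bases, had 236 to 323 counts and a log2 fold change of 0.00 (adjusted p = 0.987). *FOXM1* itself had 2404, 2650 and 2649 counts in LEADR-KD libraries, against 4943, 5233 and 4207 in Scramble libraries, which is more than either neighbour in every library.

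*MYBL2* (ENSG00000101057, chr20:42295754-42345136, plus strand) encodes B-Myb, which joins the MuvB complex before FOXM1 does and is itself a target of E2F factors. It had 131, 110 and 105 CPM in LEADR-KD libraries, against 107, 109 and 90.0 CPM in Scramble libraries. The groups overlapped, with LEADR-KD 1 the highest and Scramble 3 the lowest. *MYBL2* thus had a log2 fold change of 0.18 (95% interval -0.05 to 0.41, adjusted p = 0.254) and did not pass in any alternative. The FPKM of *FOXM1* divided by that of *MYBL2*, a ratio of levels per gene length, was 0.646, 0.746 and 0.798 in LEADR-KD libraries, against 1.53, 1.39 and 1.56 in Scramble libraries. *MYBL2* was the higher of these factors in each LEADR-KD library and *FOXM1* the higher in each Scramble library.

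*CDK1* (ENSG00000170312, chr10:62538089-62554610, plus strand), the kinase that starts mitosis, had 155, 164 and 182 CPM in LEADR-KD libraries, against 125, 138 and 136 CPM in Scramble libraries. Its lowest LEADR-KD library lay above its highest Scramble library. This gave a log2 fold change of 0.32 (SE 0.09, 95% interval 0.14 to 0.51, adjusted p = 0.0181). The call depended on single libraries: the adjusted p was 0.0511 without LEADR-KD 2, 0.0759 without LEADR-KD 3 and 0.0600 without Scramble 1, and it was 0.119 with library totals in place of TMM. The log2 fold change stayed between 0.26 and 0.38 in all 15 alternatives.

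*PLK1* (ENSG00000166851, chr16:23688977-23701688, plus strand) encodes Polo-like kinase 1, which acts at centrosomes and kinetochores and helps to switch on CDK1. It had 169, 167 and 206 CPM in LEADR-KD libraries, against 139, 140 and 163 CPM in Scramble libraries. The groups did not overlap, but Scramble 3, at 163 CPM, came within 4 CPM of LEADR-KD 2. The log2 fold change of 0.29 (95% interval 0.07 to 0.52) missed the threshold at an adjusted p of 0.0586. It passed with DESeq2 (adjusted p = 0.0383), with no filter on low counts (0.0167), with a replicate block (0.00276), without LEADR-KD 1 (0.0486) and without Scramble 3 (0.0334).

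*AURKA* (ENSG00000087586, chr20:54944445-54967393, minus strand) encodes Aurora A, the spindle pole kinase that activates PLK1. It had 112, 114 and 138 CPM in LEADR-KD libraries, against 128, 135 and 139 CPM in Scramble libraries. LEADR-KD 1 and 2 lay below every Scramble library and LEADR-KD 3 lay among them. At -0.14, the log2 fold change did not pass (95% interval -0.35 to 0.06, adjusted p = 0.306), nor did it in any alternative.

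*AURKB* (ENSG00000178999, chr17:8108056-8113918, minus strand) encodes Aurora B, the kinase of the chromosomal passenger complex, which loosens faulty attachments of chromosomes to the spindle. It had 49.6, 58.1 and 63.0 CPM in LEADR-KD libraries, against 52.5, 54.5 and 59.5 CPM in Scramble libraries. The Scramble values lay inside the range of the LEADR-KD values. The groups gave a log2 fold change of 0.04 (95% interval -0.19 to 0.27, adjusted p = 0.840), and its sign was not stable, from -0.04 to 0.13 over the 15 alternatives. The FPKM ratio of *AURKA* to *AURKB* was at most 1.72 in LEADR-KD libraries, against at least 1.78 in Scramble libraries. This ratio was not tested, and neither gene passed in any fit.

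*TTK* (ENSG00000112742, chr6:80713604-80752244, plus strand), also called MPS1, starts the spindle checkpoint at kinetochores that are not attached. It had 99.6, 82.8 and 89.5 CPM in LEADR-KD libraries, against 70.9, 75.5 and 75.4 CPM in Scramble libraries. Each LEADR-KD library lay above each Scramble library, with LEADR-KD 1 farthest from the rest. Its log2 fold change was 0.29 (SE 0.09, 95% interval 0.10 to 0.49, adjusted p = 0.0352). This was the least stable of the calls among the members, and it held in 8 of 15 alternatives. The adjusted p was 0.113 without LEADR-KD 1, 0.0710 without LEADR-KD 3, 0.0941 without Scramble 1, 0.0766 without Scramble 2, 0.0681 without Scramble 3, 0.189 without both libraries numbered 1 and 0.127 with library totals.

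*BUB1B* (ENSG00000156970, chr15:40453224-40513337, plus strand) encodes BUBR1, a part of the mitotic checkpoint complex that holds back the anaphase-promoting complex. It had 119.7, 126 and 124 CPM in LEADR-KD libraries, against 105, 106 and 108 CPM in Scramble libraries. The groups did not overlap and each was narrow. The log2 fold change of 0.21 (95% interval 0.05 to 0.38) missed the threshold at an adjusted p of 0.0571, and it passed with mitochondrial genes left out (0.0492), by limma on the deposited FPKM (0.0367) and with a replicate block (0.0232). *PAK6*, annotated on the same strand over 3709 bases of it, had 77 to 165 counts per library and a log2 fold change of -0.19 (adjusted p = 0.597), beside 1781 to 2285 counts for *BUB1B*.

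*BUB1* (ENSG00000169679, chr2:111395275-111435691, minus strand) encodes the kinase that marks centromeric chromatin for the passenger complex. It had 139, 124 and 147 CPM in LEADR-KD libraries, against 126, 133 and 134 CPM in Scramble libraries, so that the Scramble values lay inside the LEADR-KD range. The log2 fold change was 0.06 (95% interval -0.12 to 0.25, adjusted p = 0.644). It had a pair of 7-base matches to the siRNA in its coding sequence and did not pass in any alternative.

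*NEK2* (ENSG00000117650, chr1:211836114-211848960, minus strand) encodes a kinase that parts the centrosomes before mitosis. It had 31.9, 30.8 and 32.2 CPM in LEADR-KD libraries, against 45.2, 54.3 and 48.2 CPM in Scramble libraries. Every LEADR-KD library lay below every Scramble library. The means were 31.6 ± 0.733 CPM in LEADR-KD cells and 49.2 ± 4.65 CPM in Scramble cells (SD, n = 3 each), a log2 fold change of -0.64 (SE 0.10, 95% interval -0.86 to -0.42, adjusted p = 0.000954). It passed in all 15 alternatives, with log2 fold changes from -0.71 to -0.56. Of the pseudogene copies of members in the table, *AURKAPS1* had 1 count in all 6 libraries in sum and *NEK2P4*, *NEK2P2* and *BUB1P1* had 0.

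**Figure D2:**
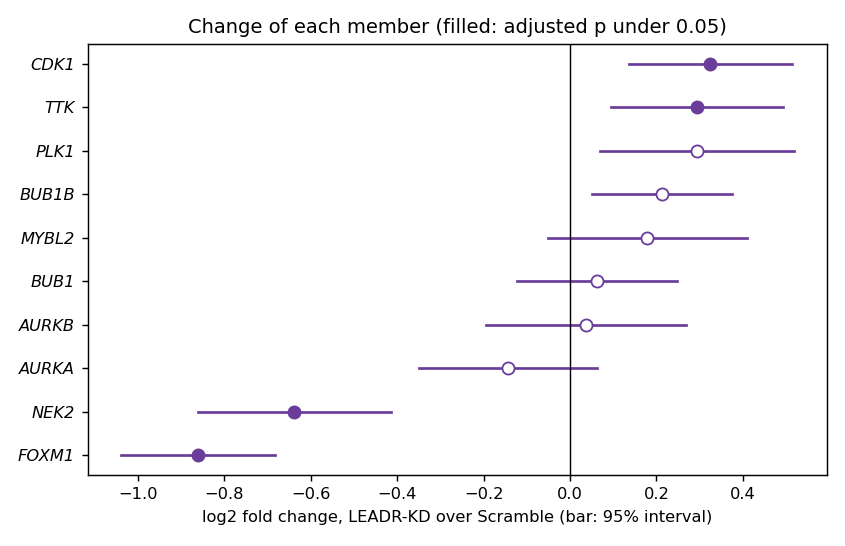
Log2 fold change of each member, LEADR-KD over Scramble, with its 95% interval, and filled points where the adjusted p was below 0.05. *FOXM1* at -0.86 and *NEK2* at -0.64 stand apart from the other 8 members, which lie between -0.14 (*AURKA*) and 0.32 (*CDK1*).

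Levels per gene length were compared by the deposited FPKM. In LEADR-KD cells *MYBL2* was the most abundant (42.9 ± 5.17 FPKM, SD, n = 3), followed by *CDK1* (42.5 FPKM), *AURKA* (41.3 FPKM), *PLK1* (37.8 FPKM), *FOXM1* (31.0 FPKM), *BUB1B* (27.4 FPKM), *AURKB* (25.4 FPKM), *BUB1* (22.6 FPKM), *TTK* (19.8 FPKM) and *NEK2* (10.4 ± 0.270 FPKM). In Scramble cells *FOXM1* led (55.9 ± 4.18 FPKM), followed by *AURKA* (45.3 FPKM), *MYBL2* (37.6 FPKM), *CDK1* (33.7 FPKM), *PLK1* (30.6 FPKM), *AURKB* (24.6 FPKM), *BUB1B* (23.5 FPKM), *BUB1* (21.5 FPKM), *NEK2* (16.1 FPKM) and *TTK* (16.0 FPKM). *FOXM1* was thus the fifth of the members in LEADR-KD cells and the first in Scramble cells. Among neighbours in the LEADR-KD order only *PLK1* over *FOXM1*, *FOXM1* over *BUB1B* and *TTK* over *NEK2* did not overlap in any library. In the Scramble order *MYBL2* and *CDK1*, *CDK1* and *PLK1*, *AURKB* and *BUB1B*, and *NEK2* and *TTK* could not be separated. TMM-scaled CPM per kilobase gave the same orders.

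**Figure D3:**
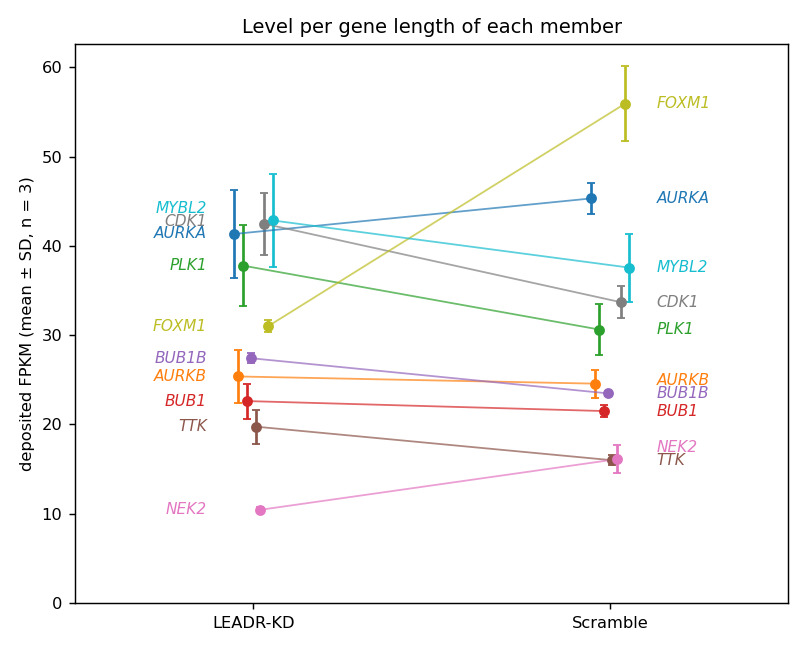
Mean deposited FPKM of each member (bars: SD, n = 3 libraries) in LEADR-KD (left) and Scramble (right) cells, with lines that join the same gene. *FOXM1* lies at 31.0 FPKM in LEADR-KD cells and at 55.9 FPKM in Scramble cells, where it is above every other member.

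The promoters of the members were examined for the CHR element, which MuvB binds, and for the CCAAT box, which the factor NF-Y binds. RefSeq promoters in GRCh38.p14, from 250 bases before to 50 bases after the start of the gene, were held for 7 of the 10 members and not for *AURKA*, *TTK* and *FOXM1*. CHR was searched as TTTGAA or TTCGAA and the CCAAT box as CCAAT, on both strands, and no CHR match overlapped a CCAAT match in the members. A CHR match was found in 4 of 7 members (57.1%), in 16.6% of all 27305 promoters, in 30 of 37 promoters (81.1%) of a list of late cell cycle targets and in 3 of 53 promoters (5.66%) of the S phase list. A CCAAT match was found in 5 of 7 members (71.4%), 35.7% of all promoters, 70.3% of the late target promoters and 58.5% of the S phase promoters. The matches upstream of *BUB1B*, *PLK1* and *CDK1* are shown, with the CHR letters in capitals, because these are members with a CHR match whose 3 LEADR-KD libraries all lay above the Scramble libraries. They begin 23, 29 and 161 bases before the start, and their windows are chr15:40161034-40161063, chr16:23678848-23678877 and chr10:60778158-60778187, all on the plus strand.
*BUB1B* promoter: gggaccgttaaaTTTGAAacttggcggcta
*PLK1* promoter: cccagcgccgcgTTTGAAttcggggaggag
*CDK1* promoter: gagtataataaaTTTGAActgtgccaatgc

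*BUB1* was the fourth member with a CHR match, a TTCGAA that begins at base 2 where the start is base 1. The level of *BUB1* did not pass the test. *NEK2*, which fell, held a pair of CCAAT matches and no CHR match in this window. *AURKB* held a CCAAT match alone, and *MYBL2* neither. A match is a description of letters, and its absence says only that these letters are not in this window.

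The partners, substrates and targets of the members were described in lists by their counts. Their shares stand beside the 12.2% of all tested genes that rose and the 12.1% that fell. Of 19 genes of mitotic entry, 6 rose (31.6%), 1 fell (5.26%) and 12 did not pass. Their median log2 fold change was 0.09, beside 0.12 for the members and -0.01 for all tested genes. *MASTL*, the Greatwall kinase that keeps CDK1 substrates phosphorylated, rose by 0.89 on the log2 scale (SE 0.12, adjusted p = 0.000308), at 30.5 CPM in LEADR-KD cells and 16.4 CPM in Scramble cells. *ARPP19*, the inhibitor of the phosphatase PP2A that Greatwall activates, rose by 0.55 (adjusted p = 0.000652). *PKMYT1*, a kinase that holds CDK1 inactive, rose by 0.73 (adjusted p = 0.00392).

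The CDC25 phosphatases, which remove the inhibitory phosphates from CDK1 and CDK2, went apart. *CDC25B* fell to 31.3 ± 4.95 CPM in LEADR-KD cells, against 62.4 ± 2.54 CPM in Scramble cells, a log2 fold change of -0.99 (SE 0.12, adjusted p = 0.000141), the only fall in the mitotic entry list. *CDC25A* rose by 0.54 (SE 0.08, adjusted p = 0.000626), at 97.2 CPM in LEADR-KD cells and 66.7 CPM in Scramble cells. *CDC25C*, named after its value was seen, had a log2 fold change of 0.08 (adjusted p = 0.706). The cyclins that bind CDK1, named after their values were seen, did not pass: *CCNB1* had a log2 fold change of -0.17 (adjusted p = 0.226), *CCNB2* of 0.09 (0.537) and *CCNA2* of 0.20 (0.0928).

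Of 26 genes of the spindle checkpoint and the chromosomal passenger complex, 8 rose (30.8%), 2 fell (7.69%) and 16 did not pass. Their median was 0.19, and 5 rose with library totals in place of TMM. The falls were *BUB3*, the partner that brings BUB1 and BUBR1 to kinetochores, at 123 ± 6.95 CPM in LEADR-KD cells and 198 ± 14.9 CPM in Scramble cells (log2 fold change -0.69, SE 0.09, adjusted p = 0.000179), and *CDCA8*, the borealin subunit of the Aurora B complex, at 65.9 ± 9.45 CPM in LEADR-KD cells and 109 ± 12.1 CPM in Scramble cells (-0.72, SE 0.12, adjusted p = 0.00105). Both passed without any single library. The other subunits of that complex, named after their values were seen, had log2 fold changes of 0.27 for *BIRC5* (adjusted p = 0.0538) and 0.14 for *INCENP* (0.235). In its 3′ UTR *CDCA8* held a match of 7 bases to the listed siRNA strand, and *BUB3* one of 6 bases. Of 7 genes of this list whose longest such match was 6 bases, 2 rose and 1 fell. Of 18 with no such match, 6 rose and 0 fell. Other lists differed. Of 8 S phase genes with a 3′ UTR match of 7 or 8 bases to the listed strand, 7 rose and 0 fell. Of 4 such late cell cycle targets 1 rose and 0 fell, and 3 such genes of the anaphase-promoting complex did not pass. *PIF1* and *RBL2*, which fell, held no 3′ UTR match to the listed strand. The part of these matches was not tested.

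Among the genes of this list that rose, *ZW10*, which brings dynein to kinetochores, changed by 0.80 (adjusted p = 8.11e-05). *GSG2*, the haspin kinase that positions the passenger complex, changed by 0.68 (adjusted p = 0.00106), and *SPC25*, of the NDC80 complex at the outer kinetochore, by 0.64 (adjusted p = 0.000627). *MAD2L2* rose by 0.53 (adjusted p = 0.0246) and passed in only 2 of 6 fits that left out a library, with the highest adjusted p, 0.0840, without LEADR-KD 1. Despite its symbol it is known mainly for its part in translesion synthesis and double strand break repair. *MAD2L1*, the checkpoint protein MAD2, named after its value was seen, had a log2 fold change of -0.20 (adjusted p = 0.212).

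The anaphase-promoting complex and its regulators, 21 genes, counted 6 higher (28.6%), 1 lower (4.76%) and 14 not passed, with a median of 0.08. The count of higher genes was 1 without LEADR-KD 2, 2 without Scramble 3, 3 without any other single library or without both libraries numbered 1, and 1 with library totals. *CDC23*, a scaffold subunit, rose by 0.62 (adjusted p = 0.00101), and *ESPL1*, the separase that cuts cohesin, by 0.48 (adjusted p = 0.0120, and 0.0660 without LEADR-KD 2). *ANAPC4* rose by 0.44 (adjusted p = 0.0242), *FBXO5*, the inhibitor EMI1, by 0.46 (0.0390), and *ANAPC5* fell by 0.26 (0.0329). These last calls held in 2, 1 and 2 of the 6 fits that left out a library, with adjusted p up to 0.0927, 0.126 and 0.128. *CDC20*, the activator in mitosis, named after its value was seen, had a log2 fold change of 0.09 (adjusted p = 0.620).

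Of 41 late cell cycle targets, 14 rose (34.1%), 1 fell (2.44%) and 26 did not pass, with a median of 0.15. The number that rose was 9 without LEADR-KD 3 and without Scramble 3, 8 without both libraries numbered 1 and 6 with library totals. *KIF11*, the kinesin that separates spindle poles, was at 153 CPM in LEADR-KD cells and 79.9 CPM in Scramble cells, a log2 fold change of 0.94 (SE 0.12, adjusted p = 0.000179). Condensin compacts mitotic chromosomes, and of its 5 subunits in the list *NCAPG* rose by 0.82 (adjusted p = 0.000171), *SMC2* by 0.66 (0.000789) and *NCAPD2* by 0.45 (0.00187). The other subunits, named after their values were seen, had log2 fold changes of 0.31 for *NCAPH* (adjusted p = 0.0408, and up to 0.146, without LEADR-KD 3, with a library left out) and 0.26 for *SMC4* (0.0614). *PIF1*, a DNA helicase, fell by 0.88 on the log2 scale (SE 0.20, adjusted p = 0.00904), at 11.6 CPM in LEADR-KD cells and 21.4 CPM in Scramble cells.

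Of 66 genes of the S phase list, 47 rose (71.2%, beside 12.2% of all tested genes), 1 fell (1.52%, beside 12.1%) and 18 did not pass. The median log2 fold change was 0.38. *CDC6* and *CDT1*, which load the replicative helicase, rose by 1.00 (SE 0.08, adjusted p = 6.96e-06) and 0.83 (SE 0.09, adjusted p = 8.96e-05). *E2F2*, a transcription factor of the G1 to S transition, rose by 1.09 (adjusted p = 0.00105), and *RFC4*, of the clamp loader, by 0.86 (adjusted p = 0.000463). *UNG*, the uracil glycosylase, fell by 0.39 (adjusted p = 0.00822). The list's count of higher genes ranged from 32 to 53 over the 15 alternatives.

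**Figure D4:**
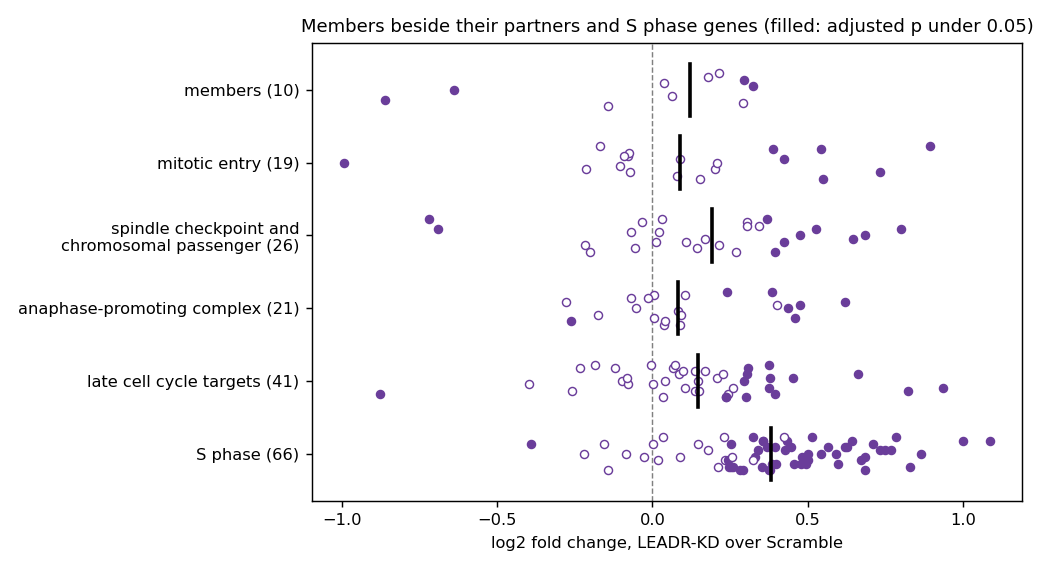
Log2 fold change, LEADR-KD over Scramble, of every tested gene of the members, of 4 lists of mitotic partners and targets and of the S phase list, where points are filled if the adjusted p was below 0.05 and a bar marks each median. The median is 0.12 for the members and 0.38 for the S phase genes, and *FOXM1*, *NEK2*, *CDC25B*, *BUB3*, *CDCA8* and *PIF1* are the filled points below -0.5.

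Within each library, the mean log2 CPM of the 10 members was set beside that of the S phase genes. The members averaged 6.70, 6.67 and 6.79 in LEADR-KD libraries, against 6.71, 6.77 and 6.76 in Scramble libraries, so that the groups overlapped. *FOXM1* and *NEK2* fell, and without them, a choice made by their values, the groups did not overlap. The remaining members averaged 6.85, 6.82 and 6.96 in LEADR-KD libraries, against 6.67, 6.73 and 6.75 in Scramble libraries. The S phase genes averaged 6.33, 6.35 and 6.34 in LEADR-KD libraries, against 5.91, 6.00 and 5.94 in Scramble libraries, with no overlap. The mean of all 10 members exceeded the S phase mean by 0.37, 0.32 and 0.44 in LEADR-KD libraries, against 0.79, 0.77 and 0.82 in Scramble libraries. Without *FOXM1* and *NEK2* the groups lay closer, at 0.52, 0.47 and 0.61 in LEADR-KD libraries, against 0.76, 0.74 and 0.81 in Scramble libraries. These are means over genes of different lengths, so they compare libraries and not the level of one gene with another, and no test was made on them.

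**Figure D5:**
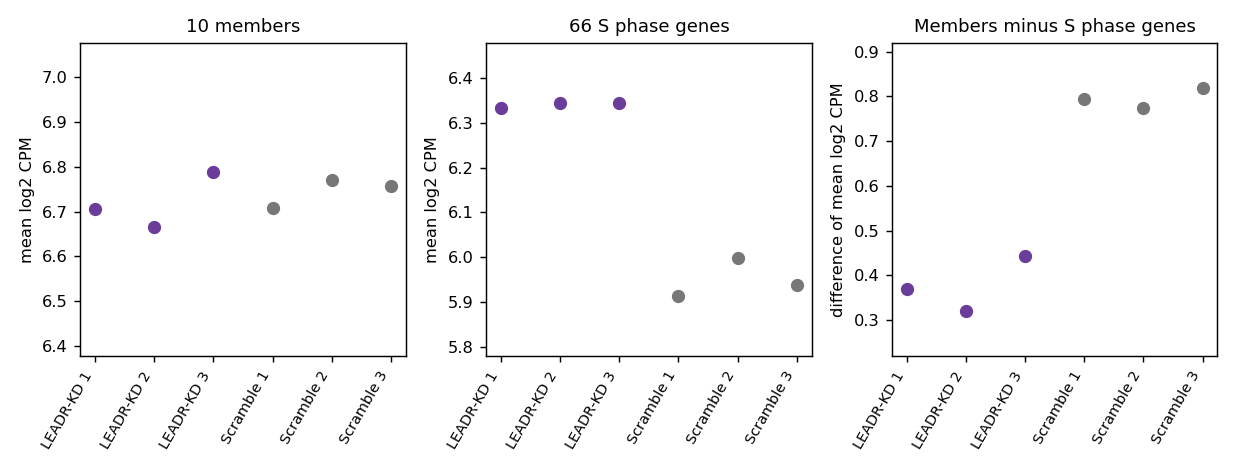
Mean log2 CPM in each library over the 10 members (left), over the 66 S phase genes (middle), and their difference (right), LEADR-KD in purple and Scramble in grey; each axis spans the same range of 0.7. The members overlap between groups, whereas the difference is 0.32 to 0.44 in LEADR-KD libraries and 0.77 to 0.82 in Scramble libraries.

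The list of MuvB, the E2F and RB families and NF-Y held 17 genes. Of these, 2 rose (11.8%, beside 12.2% of all tested genes), 1 fell and 14 did not pass. Their median was -0.05, and it was 0.01 without Scramble 1 and 0.03 without both libraries numbered 1. *RBL1*, the pocket protein p107, rose by 0.61 (SE 0.11, adjusted p = 0.00213), at 43.1 CPM in LEADR-KD cells and 28.3 CPM in Scramble cells. *RBL2*, the pocket protein p130, which joins MuvB in resting cells, fell by 0.59 (SE 0.09, adjusted p = 0.000852), at 49.3 CPM in LEADR-KD cells and 74.4 CPM in Scramble cells. *E2F3* rose by 0.28 (adjusted p = 0.0400), a call lost in each of the 6 fits that left out a library, with adjusted p of 0.0669 to 0.110.

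Of 27 relatives of the member kinases 24 were tested, of which 6 rose (25%) and 1 fell (4.17%), with a median of 0.11. *PLK2*, a stress-responsive Polo-like kinase, was at 58.0 ± 11.9 CPM in LEADR-KD cells, above every Scramble library (log2 fold change 0.95, SE 0.15, adjusted p = 0.000989), and *PLK4*, the kinase of centriole duplication, named after its value was seen, had a log2 fold change of 0.19 (adjusted p = 0.192). *NEK7*, which acts at spindle poles and in the NLRP3 inflammasome, rose by 0.85 (SE 0.11, adjusted p = 0.000227), the opposite direction to *NEK2*. *CDK2*, the kinase of S phase, rose by 0.58 (adjusted p = 0.00156) and *CHEK1*, the checkpoint kinase downstream of ATR, by 0.58 (adjusted p = 0.000565). *NEK8* fell by 0.79 (adjusted p = 0.0375), at 3.51 CPM in LEADR-KD cells and 6.06 CPM in Scramble cells, and passed in 2 of 6 fits that left out a library, with an adjusted p of 0.135 without LEADR-KD 2.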

How the data were processed

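Poly(A) RNA of RT4 cells was sequenced from dUTP directional libraries, 3 per siRNA, and all 6 were assigned by the submitters' labels. The authors deposited raw counts of reads for each gene. HISAT2 2.0.5, featureCounts 1.5.0-p3 and hg19 are listed in the submitters' processing notes, Salmon in the methods of the paper, and no source used here states a strand setting. The FPKM values deposited by the authors are counts divided by the deposited gene length and a constant per library. A further deposited table holds the authors' own log2 fold changes, p-values and adjusted p-values (DESeq2 1.20.0) and was not used.

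Reads were not processed again. Library totals were 15706033 to 18960822 counts. Genes were kept by filterByExpr (minimum count 10), 14178 of 57905, scaled by TMM and tested for LEADR-KD against Scramble by edgeR 4.0.16 (quasi-likelihood, two-sided, no covariate, R 4.3.3) with Benjamini-Hochberg adjustment over all tested genes; a gene rose or fell at an adjusted p under 0.05. The standard error is the size of the log2 fold change divided by the square root of F. The common biological coefficient of variation was 12.6%. The steps were tested on simulated counts with known changes. They recovered 1 of 46 genes changed 1.25-fold and 22 of 48 changed 1.5-fold. At 2-fold they recovered 42 of 50 and at 4-fold 44 of 47, and 12 unchanged genes were called. Far fewer genes were changed in the simulation than were called in the data, which makes the adjusted p stricter there. These shares therefore do not give the recovery of the test in the data. Mean log2 CPM used a prior count of 2. Lists were described by counts and medians.

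The text names all members, *MIR205HG*, up to 4 genes per list and direction that passed and had the largest change, and the 3 genes with the profile nearest to the members' mean; genes outside this rule are marked as named after their values were seen. Members and lists were chosen with earlier results of these data known. Transcripts came from the GENCODE annotation of GRCh37 and promoters from RefSeq (GRCh38.p14). Alternatives were DESeq2 1.42.0, other scalings, filters, limma 3.58.1 on log2(FPKM + 1), a replicate block and libraries left out, 15 in all.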

Additional observations from a re-analysis of the deposited data

How the results depend on the processing

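*FOXM1* and *NEK2* passed in all 15 alternatives, and no member that passed changed sign in any of them; *AURKB* and the median of the MuvB, E2F and RB list, both near 0 and not called, took either sign. With library totals in place of TMM 0 members rose, 1085 of all tested genes rose, their median was -0.055 and that of the S phase list 0.34. The number of members that rose was 0 to 2 with a library left out and 1 without both libraries numbered 1; the count of all genes that fell was 1142 to 1472 with a library left out. Samples with the same replicate number had correlated deviations of 0.227, 0.00058 and 0.266 for numbers 1, 2 and 3. Those for numbers 1 and 3 exceeded every correlation between differently numbered samples. The highest of the latter was 0.0755, for LEADR-KD 2 with Scramble 3. Since number 2 showed no such tie, the numbers were not taken to pair the samples. Whether numbers 1 and 3 shared a batch was not tested. With a replicate block 4 members rose (*PLK1*, adjusted p = 0.00276, and *BUB1B*, 0.0232, beside *CDK1* and *TTK*) and 2 fell. That fit called 4854 genes, of which 3450 were also called without the block. DESeq2 called 3636 genes. The causes of these differences were not tested. With 3 libraries per group the 95% intervals of the members that did not pass were wide enough that they are not shown to be at the same level in both groups.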

Other observations

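The mean profile of the members over the 6 libraries was nearly flat, though it averages *FOXM1* and *NEK2*, which fell, with members that rose. The 3 tested genes nearest to it, by the root mean square difference of log2 CPM centred on each gene's mean, were *MAPK1IP1L* (0.0172), *TBL3* (0.0175) and *ITPKC* (0.0203), with log2 fold changes of -0.01, -0.05 and -0.03 and adjusted p of 0.927, 0.765 and 0.854. The FPKM ratio of *CDK1* to *TTK* was 1.82, 2.31 and 2.37 in LEADR-KD libraries, against 2.07, 2.15 and 2.11 in Scramble libraries. That of *BUB1* to *BUB1B* was 0.861, 0.734 and 0.883 in LEADR-KD libraries, below each of the 0.891, 0.934 and 0.922 in Scramble libraries. The ratios were not tested, and how often the ratios of other gene pairs separate the groups was not counted.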
